A study of Mus musculus with 8 samples.

Results

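Described here are 10 genes of the peroxisome proliferator-activated receptor (PPAR) system: the receptors Pparg, Ppara and Ppard, their partner Rxra, and 6 common target genes, Angptl4, Cd36, Plin2, Pdk4, Cpt1a and Fabp5. They were chosen by name, because alpinetin has been reported to activate PPARγ, though with earlier results of these data known. All 10 were found among the 18770 genes measured, and all 10 passed the filter on low values. RNA was sequenced from dorsal skin of wildtype C57BL/6 mice (C57BL/6J in the study's methods) aged 7 to 8 weeks at D4 after depilation, and interfollicular epidermis had been removed, so that dermis and hair follicles were left. The vehicle group (VC, n = 4) received 20 µl of 65% ethanol on the depilated skin once a day. The alpinetin group (AP, n = 4) received the same volume of 65% ethanol once a day, with alpinetin at 3 mg/ml. By the study's methods the mice were males. Each library carries its group's name and a number (VC.1, AP.3), and where 4 values of a group are listed they follow these numbers. A library could be tied to its group but not to a particular mouse, and p-values measure the spread between these 8 libraries.

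PPARs are nuclear receptors that bind fatty acids and their oxidised derivatives, pair with a retinoid X receptor (RXR) and raise the transcription of genes for the uptake, storage and burning of fat. PPARγ is the master regulator of fat cells and of sebaceous glands, PPARα drives fatty acid oxidation, and PPARδ is the form that keratinocytes express widely. Skin has each of these cell types close to the hair follicle, and the fat layer around the follicle thickens as hair growth begins.

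Reads counted on genes numbered 6454563 to 7264151 per VC library and 8507783 to 11190113 per AP library. Genes of the mitochondrial genome took 48.4% ± 5.81 (SD, n = 4) of the VC reads and 8.66% ± 2.63 (SD, n = 4) of the AP reads (exact permutation test, 2-sided, p = 0.0286, the smallest p that the design allows). Of the reads on all other genes, each VC library therefore had 3080758 to 3762217 and each AP library 7561598 to 10594787, so low levels were measured less precisely in VC. Values below are normalized counts, that is reads divided by a size factor for each library, and 1 read was worth 1.37 to 1.88 normalized counts in VC and 0.498 to 0.725 in AP. Fold changes are AP over VC on the scale of log2(normalized count + 1), from limma's test across 15964 genes, and a gene is said to have changed where its p adjusted over all of these genes was under 0.05.

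Of the 10 genes, 1 was higher in AP, the fatty acid oxidation gene Cpt1a, and 0 were lower, while across all genes tested 6.33% were higher and 4.0% were lower. Likewise 1 of the 10 had AP and VC libraries that did not overlap, against 19.2% of all genes. The counts do not set the 10 genes apart from the rest. At an unadjusted p under 0.05, 3 of the 10 were above 0 (Cpt1a, Ppara and Rxra) and 1 was below 0 (Plin2), beside 17% and 13.3% of all genes. DESeq2 on the recovered reads called 1 of the 10 higher and 1 lower (10.5% and 8.53% of all genes), and edgeR called 1 higher and 0 lower (6.28% and 4.46%). The median log2 fold change of the 10 genes was 0.28, beside 0.058 for all genes tested. Scaling by total counts, which mitochondrial reads dominate in VC, moved the median of all genes to 0.90. It called 6 of the 10 genes higher, beside 8670 of the 16137 genes tested under that scaling. Every direction below is therefore relative to the bulk of the genes.

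**Figure D1:**
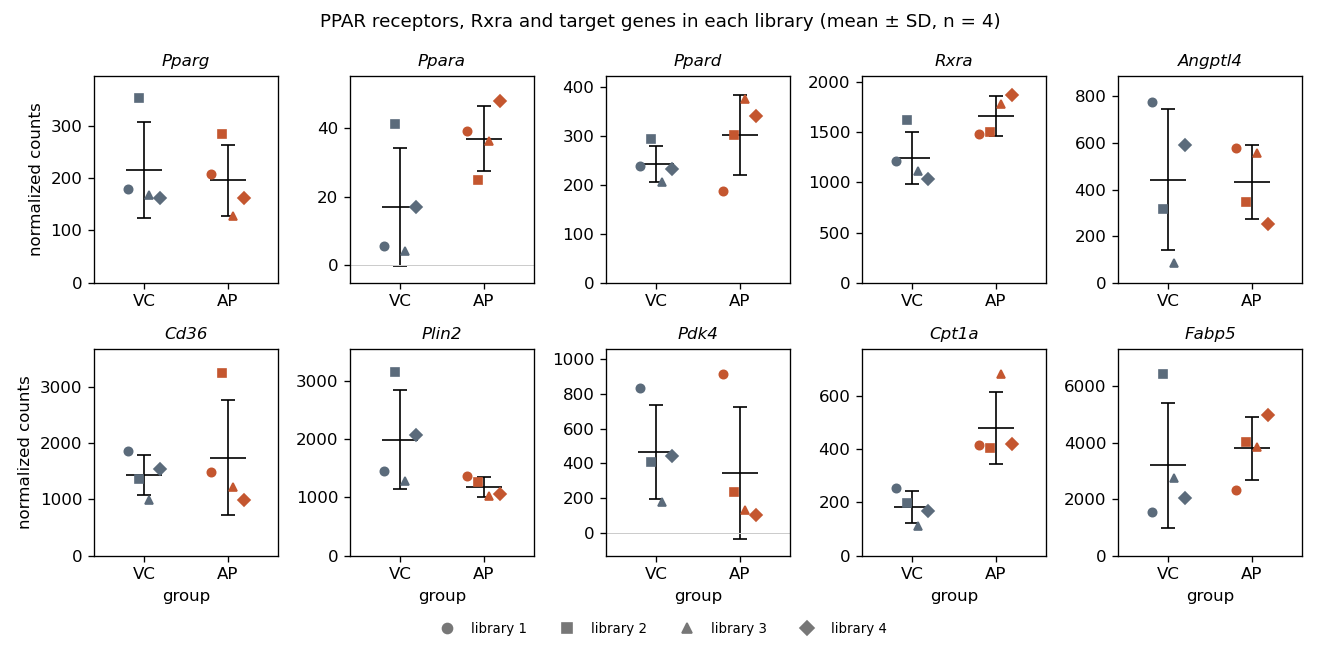
Normalized counts of each of the 10 genes in each VC and AP library, with 1 panel per gene and a linear axis from 0 or below; symbols number the libraries within a group, and bars give the mean ± SD (n = 4). The 4 AP libraries lie above all VC libraries for Cpt1a, and the groups overlap in the other panels.

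Pparg (ENSMUSG00000000440, chr6:115360951-115490399) codes for the receptor that alpinetin is reported to activate. Pparg had 180, 355, 168 and 163 normalized counts in VC and 209, 286, 127 and 163 in AP. VC.2 stood above the other VC libraries, and AP.2 was the highest AP library. Of the remaining values, AP.1 was above VC.1, VC.3 and VC.4. AP.3 and AP.4 were below every VC library, AP.4 only narrowly (163.08 against 163.13 in VC.4). Its log2 fold change was -0.12 (95% interval -0.79 to 0.54, adjusted p = 0.814), so that a difference of up to 0.79 downward or 0.54 upward was compatible with the spread between libraries. Its sign depended on single libraries: it was 0.14 without VC.2, 0.062 without AP.3 and 0.74 when scaled by total counts.

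Ppara (ENSMUSG00000022383, chr15:85734983-85802819), the receptor best known for switching on fatty acid oxidation, was the least abundant of the 10 genes. Ppara had 5.46, 41.4, 4.10 and 16.9 normalized counts in VC and 39.2, 24.8, 36.4 and 47.9 in AP. The VC.1 and VC.3 values rest on 3 reads each, VC.2 reached the AP range, and the 4 AP libraries had 46 to 73 reads. The log2 fold change was 1.56 (95% interval 0.17 to 2.95, unadjusted p = 0.0310, adjusted p = 0.125), which did not pass the threshold over all genes. Without VC.2 it was 2.15 (adjusted p = 0.0379), whereas it was 1.24 without VC.1 and 1.13 without VC.3. edgeR gave 1.10 (adjusted p = 0.258) and DESeq2 1.12 (adjusted p = 0.205). The range of adjusted p over the 24 alternatives was 0.00867, from total counts, to 0.258.

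Ppard (ENSMUSG00000002250, chr17:28232700-28301474) codes for the receptor of the family that is widely expressed in keratinocytes. Ppard had 238, 294, 206 and 233 normalized counts in VC and 188, 301, 375 and 341 in AP. AP.2, AP.3 and AP.4 were above every VC library, and AP.1 was below every VC library. Its log2 fold change was 0.28 (95% interval -0.22 to 0.77, adjusted p = 0.438). With single libraries left out it went from 0.16 (without AP.3) to 0.49 (without AP.1), and with the length trend removed it was 0.018 (adjusted p = 0.965).

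Levels of the 3 receptors were compared per kilobase of annotated exons. On that scale Pparg made up 65.8% ± 4.01 of the PPAR receptor transcripts in VC and 56.3% ± 12.8 in AP, Ppard 30.8% ± 5.23 and 35.1% ± 11.5, and Ppara 3.49% ± 2.51 and 8.61% ± 2.84 (each SD, n = 4). On this scale Pparg was thus the leading receptor transcript in every library except AP.3, where Ppard had 48.7% and Pparg 42.0%. The annotated exons span 7514 bases for Ppard and 2953 for Pparg, over all isoforms. In normalized counts not divided by length, Ppard was above Pparg in every library except VC.2 and AP.1. Which receptor leads therefore depends on the lengths used.

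Rxra (ENSMUSG00000015846, chr2:27676440-27762957) codes for the retinoid X receptor that each PPAR needs in order to bind DNA. Rxra had 1211.5, 1626, 1114 and 1039 normalized counts in VC and 1487, 1503, 1789 and 1877 in AP. AP.3 and AP.4 were above every VC library, whereas VC.2 was above AP.1 and AP.2. Its log2 fold change was 0.43 (95% interval 0.05 to 0.81, unadjusted p = 0.0296, adjusted p = 0.122), and it passed the threshold only when scaled by total counts.

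The other RXR genes did not pass the test either. Rxrb had 309 to 526 normalized counts in VC and 406 to 508 in AP, with a log2 fold change of 0.089 (adjusted p = 0.773) that was -0.042 without VC.1. Rxrg, the scarcest RXR gene, had 11.2 to 47.3 in VC and 10.5 to 29.7 in AP. Its log2 fold change of -0.68 (adjusted p = 0.403) was -1.13 without VC.4, -0.42 without AP.3 and 0.15 when scaled by total counts. In the receptor lists, 0 of 3 PPAR genes and 0 of 3 RXR genes were called by limma, edgeR or DESeq2, and 1 gene of each list had an unadjusted p under 0.05.

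Cpt1a (ENSMUSG00000024900, chr19:3322334-3385733) codes for carnitine palmitoyltransferase of the outer mitochondrial membrane, the rate-limiting enzyme for the entry of long-chain fatty acids into mitochondria, and it is a classic PPARα target. Cpt1a had 255, 197, 111 and 167 normalized counts in VC and 414, 404, 680 and 418 in AP. Every AP library was above every VC library, and AP.3 stood above the other AP libraries, which were close to each other. The gene was 2.67-fold higher in AP, a log2 fold change of 1.42 ± 0.26 (SE, 95% interval 0.84 to 1.99, adjusted p = 0.0130). The call was made under all 24 alternatives, with log2 fold changes of 1.15 to 2.28 and adjusted p of 1.07e-04 to 0.0451. With AP.3 left out the log2 fold change was 1.24 (adjusted p = 0.0448).

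Pdk4 (ENSMUSG00000019577, chr6:5483351-5496309) codes for the kinase that shuts pyruvate dehydrogenase and so spares glucose when fat is burned. Pdk4 had 835, 406, 180 and 441 normalized counts in VC and 912, 236, 131 and 104 in AP. AP.1 was the highest of all 8 libraries, AP.3 and AP.4 were below every VC library, and AP.2 lay within the VC range. The log2 fold change was -0.80 (95% interval -2.15 to 0.55, adjusted p = 0.409); it was -0.44 with edgeR, -0.43 with DESeq2 and 0.069 when scaled by total counts. With single libraries left out it went from -1.45 without AP.1 (adjusted p = 0.0553) to -0.41 without AP.4 (adjusted p = 0.714). The library with most Pdk4 in AP also had most skeletal muscle RNA: the 11 muscle markers summed to 85898 normalized counts in AP.1 and to 6578 to 13844 in the other AP libraries.

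In VC the muscle markers summed to 58367, 86522, 45094 and 46439 normalized counts, and there the library with most Pdk4, VC.1, was not the one with the highest sum, VC.2. Of the markers 1 of 11, Tnnc2, was lower in AP and 0 were higher, with a median log2 fold change of -1.81, and 9 were below 0 at an unadjusted p under 0.05. edgeR and DESeq2 called 0 of them, with medians of -1.18 and -1.16, and the median was -0.94 with total counts. The most abundant muscle marker, Acta1, the skeletal muscle actin, had 12919 to 26816 normalized counts in VC, 20882 in AP.1 and 1683 to 4337 in AP.2 to AP.4. The part of muscle RNA in the Pdk4 values was not tested. In bulk RNA, fewer cells of a type and less RNA per cell cannot be told apart.

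Plin2 (ENSMUSG00000028494, chr4:86648386-86670060) codes for perilipin 2, the coat protein of lipid droplets in most cells other than mature fat cells. Plin2 had 1455, 3162, 1284 and 2070.0 normalized counts in VC and 1375, 1268, 1022 and 1069 in AP. AP.2, AP.3 and AP.4 were below every VC library, AP.1 was above VC.3, and VC.2 was the highest of all. The log2 fold change was -0.67 (95% interval -1.23 to -0.11, unadjusted p = 0.0230, adjusted p = 0.107). DESeq2 called it lower (adjusted p = 0.0490), the remaining alternatives did not call it, and scaling by total counts turned its sign to 0.20. Plin2 was at -0.42 without VC.2 (adjusted p = 0.192) and at -0.85 without VC.3 (adjusted p = 0.0577).

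Fabp5 (ENSMUSG00000027533, chr3:10012548-10016607) codes for the epidermal fatty acid binding protein, which carries ligands to PPARδ in the nucleus. Fabp5 had 1564, 6419, 2758 and 2044 normalized counts in VC and 2326, 4039, 3847 and 4990.2 in AP. VC.2 was the highest of all libraries, AP.2 to AP.4 were above the other VC libraries, and AP.1 lay between VC.4 and VC.3. Its log2 fold change was 0.42 (95% interval -0.43 to 1.26, adjusted p = 0.494), 0.24 with edgeR and 0.25 with DESeq2. It went from 0.15 without VC.1 (adjusted p = 0.831) to 0.83 without VC.2 (adjusted p = 0.0859).

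VC.2 was the highest VC library for Pparg, Ppara, Ppard, Rxra, Plin2 and Fabp5, and it also had the highest sums of the VC group for sebaceous gland, basal and suprabasal keratinocyte and skeletal muscle markers. It did not lead the VC group for the other marker lists, and its adipocyte sum was the lowest of all 8 libraries (7488 normalized counts). The 9 sebaceous markers summed to 1801, 12019, 3184 and 3879 normalized counts in VC and to 4452, 4048, 2680.1 and 3394 in AP. In AP the library with the highest sebaceous sum, AP.1, was the highest for Plin2, in between for Pparg and Ppara, and the lowest for Ppard, Rxra and Fabp5. Elovl3, a fatty acid elongase and the most abundant of them, had 2697 normalized counts in VC.2 and 305 to 848 in the other 7 libraries. Of these markers 0 of 9 were called, 0 had an unadjusted p under 0.05, edgeR and DESeq2 called 0, and the median log2 fold change was -0.39 (0.47 when scaled by total counts). The part of sebaceous gland, keratinocyte or muscle RNA in the values of VC.2 was not tested.

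Cd36 (ENSMUSG00000002944, chr5:17781690-17888801) codes for a fatty acid transporter of the cell surface that fat cells, small vessels and macrophages carry. Cd36 had 1854, 1364, 986 and 1539 normalized counts in VC and 1494, 3243, 1223 and 998 in AP. AP.2 stood far above all other libraries, and the remaining AP values lay within the VC range. Its log2 fold change was 0.16 (95% interval -0.56 to 0.87, adjusted p = 0.780), and it was -0.20 without AP.2 and -0.012 without VC.3.

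AP.2 also had the most fat and vessel RNA of the AP group. The 11 adipocyte markers summed to 26364, 7488, 7816 and 16463 normalized counts in VC and to 18181, 27144, 11463 and 9508 in AP. The 8 endothelial markers summed to 1175, 1258, 2276 and 2141 in VC and to 3586, 8264, 2827 and 3374 in AP. In VC, Cd36 and the adipocyte sum were highest in VC.1, where the endothelial sum was lowest. Cd36 was lowest in VC.3, where the endothelial sum was highest. The 9 macrophage markers summed to 19289, 9871, 8606 and 25538 in VC and to 11974, 8041, 5788 and 6055 in AP. Of the adipocyte markers 1 of 11, Adrb3, was higher and 0 were lower, and Cfd, the most abundant, had 3601 to 13925 in VC and 5855 to 14584 in AP. Of the endothelial markers 3 of 8 were higher (Pecam1, Cdh5 and Flt1) and 0 lower, with a median log2 fold change of 1.41. edgeR called 3 of these markers higher, DESeq2 6 and total counts 8, each with 0 lower, and 7 had an unadjusted p under 0.05. Cldn5, the most abundant of them per kilobase, had 122 to 322 in VC and 254 to 459 in AP and was not called (adjusted p = 0.0783). The part of fat, vessel or macrophage RNA in the Cd36 values was not tested.

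Angptl4 (ENSMUSG00000002289, chr17:33773750-33781830) codes for a secreted inhibitor of lipoprotein lipase that PPARs, fasting and low oxygen induce. Angptl4 had 777, 318, 86.0 and 591 normalized counts in VC and 577, 348, 557 and 253 in AP. The AP libraries lay within the VC range, and VC.3 was the lowest of all 8. Its log2 fold change was 0.29 (95% interval -0.94 to 1.53, adjusted p = 0.759), -0.36 without VC.3, and -0.024 with edgeR and -0.028 with DESeq2.

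Per kilobase of annotated exons, averaged over the groups, the order of the 10 genes was Fabp5 (981 normalized counts per kilobase), Plin2 (452), Cd36 (442), Rxra (267), Angptl4 (124), Pdk4 (116), Pparg (69.9), Cpt1a (43.2), Ppard (36.2) and Ppara (7.04). Several neighbours could not be ordered beyond their spread: Plin2 was above Cd36 in 4 of 8 libraries, Angptl4 above Pdk4 in 4, Pdk4 above Pparg in 3 and Cpt1a above Ppard in 5. Fabp5 was above Plin2 in 7 of 8, Cd36 above Rxra in 7, Pparg above Cpt1a in 7, and Rxra was above Angptl4 and Ppard above Ppara in all 8. Some neighbours stood in a different order in each group. Plin2 was over Cd36 in VC (567 and 400 normalized counts per kilobase) and under it in AP (337 and 485), and Pdk4 was over Angptl4 in VC (133 and 125) and under it in AP (98.4 and 123). Cpt1a went from 23.8 ± 7.86 per kilobase in VC, under Ppard at 32.3 ± 4.92, to 62.7 ± 17.5 in AP, over Ppard at 40.1 ± 10.8 (SD, n = 4). Exon lengths cover all annotated isoforms, so a gene whose main transcript is short is placed too low.

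Around these genes, 106 further genes of the pathway were tested in lists by role. Of them 11 were higher and 1 was lower in AP, again beside 6.33% and 4.0% of all genes, and their median log2 fold change was 0.092. The counts leaned on single libraries: 1 was higher without AP.3, 4 without AP.2 or without AP.4, and 7 without VC.4, while 2 were lower without VC.3 and 3 without AP.1. Calls over all genes also fell, from 1011 higher to 211 without AP.3, 385 without AP.2, 257 without AP.4 and 729 without VC.4. They fell to 584 without VC.1, where 8 of the pathway genes were higher. Leaving out VC.2 and AP.1 together, a setting chosen after the values were seen, gave 10 higher and 3 lower, and 2 of the 10 PPAR genes higher, Fabp5 joining Cpt1a.

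Enzymes that make lipid ligands held the most calls of the lists, with 5 of 13 higher and 1 lower, beside 6.33% and 4.0% of all genes. Their median log2 fold change was 1.29. The lists were chosen with earlier results of these data known, so this count describes the list and is no independent finding. DESeq2 called 6 higher and 2 lower, and the log2 fold changes went from -2.26 to 4.86. Ptgs2, the inducible cyclooxygenase, had 5.46, 4.43, 5.46 and 1.88 normalized counts in VC, which is 1 to 4 reads, and 52.2, 60.9, 66.3 and 82.3 in AP, and its log2 fold change of 3.70 (adjusted p = 0.00237) passed the threshold under all 24 alternatives, which placed it between 2.92 and 4.45. Ptgs1, the constitutive cyclooxygenase, had 63.7 to 225 in VC and 294 to 689 in AP (log2 fold change 1.71, adjusted p = 0.0230). Both enzymes start the route from arachidonic acid to prostaglandins.

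Alox5, which starts leukotriene synthesis, had 17.7 to 39.6 normalized counts in VC and 57.7 to 118 in AP (log2 fold change 1.70, adjusted p = 0.0205). Alox12b, a lipoxygenase of the cornified layer of the epidermis, had 0, 0, 39.6 and 7.50 in VC and 82.0, 61.5, 212 and 222 in AP (log2 fold change 4.86, adjusted p = 0.0211, and 3.51 with edgeR, 3.61 with DESeq2 and 5.94 at most over the 24 alternatives). Alox12, named after its values were seen, had 9.38 to 27.3 in VC and 31.9 to 88.7 in AP (log2 fold change 1.59, adjusted p = 0.0496). In the opposite direction Ptgds, the synthase of prostaglandin D2 and also named after its values were seen, had 114 to 218 in VC and 35.8 to 67.3 in AP (log2 fold change -1.60, adjusted p = 0.0113). Prostaglandin D2 gives rise to a cyclopentenone derivative that binds PPARγ.

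Some of these calls depended on the libraries or the method. Ptgds was called with each library left out, though not when scaled by total counts (adjusted p = 0.0806), whereas Ptgs1 lost its call without AP.2, AP.3 or AP.4 (highest adjusted p 0.0758), and Alox5 and Alox12b without AP.3 or AP.4 (highest 0.0690 and 0.0710). Nor was Alox5 called without VC.2 and AP.1 (0.0572). With no intensity trend Ptgs1 (0.0668) and Alox12b (0.0593) were not called, and neither was Alox12b by DESeq2 (0.0591), voom (0.0620) or voom with sample weights (0.0572). Alox12 was called under 9 of the 24 alternatives, edgeR (0.0484) and DESeq2 (0.0096) among them; of the libraries left out in turn, its call held without VC.3 and without AP.1 (highest 0.149 among the rest).

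Like Alox12b and Cpt1a, most markers of suprabasal keratinocytes were higher in AP: 14 of 17 were higher and 0 lower, with a median log2 fold change of 2.91. They summed to 6798, 14320, 9809 and 6654 normalized counts in VC and to 46841, 44523, 130545 and 182023 in AP. In AP, the lowest value of Cpt1a and the lowest sum were both in AP.2, and the highest were in AP.3 for Cpt1a and in AP.4 for the sum. In VC the highest were in VC.1 for Cpt1a and in VC.2 for the sum. Krt10, the keratin of these cells and the most abundant of the markers, had 1302 to 4085 in VC and 15852 to 73322 in AP. Of 9 basal keratinocyte markers 5 were higher and 0 lower, with sums of 22376 to 79369 in VC and 50489 to 140555 in AP. The most abundant, Krt14, had 9490 to 39471 in VC and 19368 to 65025 in AP and was not called (adjusted p = 0.212). The enzymes that make lipid ligands summed to 870, 1107, 1113 and 1089 in VC and to 1430, 1545, 2414 and 2669 in AP. AP.3 and AP.4 thus led for this list as for the suprabasal markers, and they led for Ptgs1, Ptgs2, Alox12 and Alox12b as well. For Alox5, however, AP.1 (104) was above AP.3 (86.7), and for Ptgds AP.4 was the lowest AP library (35.8). The part of keratinocyte RNA in Cpt1a and in the enzymes that make lipid ligands was not tested. The labels describe the tissue as free of interfollicular epidermis, which is where most suprabasal keratinocytes lie.

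**Figure D2:**
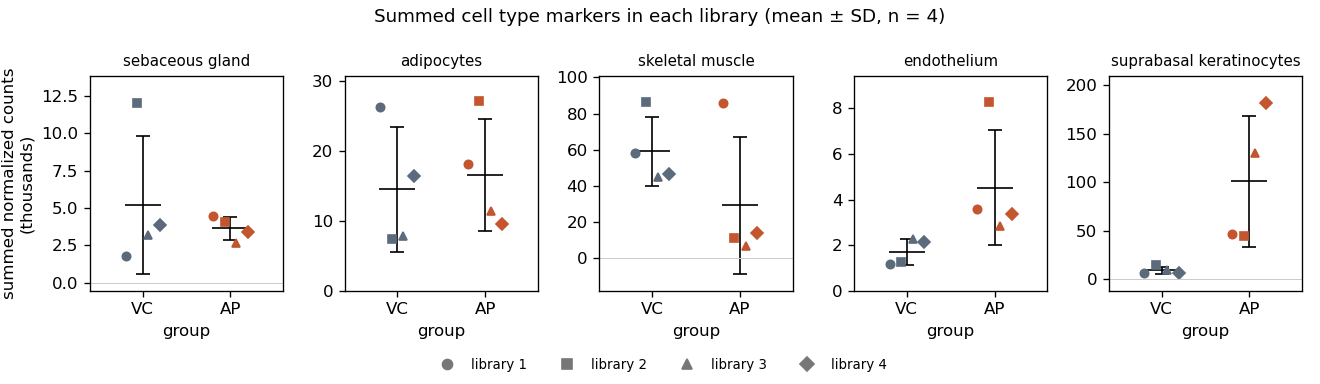
Summed normalized counts, of 5 cell type marker lists in each VC and AP library on linear axes; symbols number the libraries within a group, and bars give the mean ± SD (n = 4). VC.2 leads for sebaceous gland, AP.1 leads the AP group for skeletal muscle, AP.2 leads for endothelium, and suprabasal keratinocyte markers are higher in every AP library than in any VC library.

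Among genes for fatty acid uptake, binding and activation, 2 of 17 were higher and 0 lower, with a median log2 fold change of 0.28. Slc27a6, a fatty acid transport protein, had 20.48 to 35.5 normalized counts in VC and 63.7 to 107 in AP (log2 fold change 1.5, adjusted p = 0.0174; lost without AP.2 or AP.3, highest 0.0679). Acsl1, the acyl-CoA synthetase that feeds both fat storage and oxidation and a known PPAR target, had 719, 514, 509 and 506 in VC and 1047, 1920.0, 929 and 908 in AP (log2 fold change 1.04, adjusted p = 0.0245). Its call was lost without AP.3 (0.0516), without VC.2 and AP.1 (0.0513) and with no intensity trend (0.0707). With the length trend removed it was also lost, at 0.73 (adjusted p = 0.0788). Acsl1 makes the acyl-CoA that Cpt1a takes up. For both genes every AP library was above every VC library, while 19.2% of all genes had groups without overlap in either direction. A link between the changes of these genes was not tested. By contrast Fabp4 and Lpl, textbook PPARγ targets named after their values could be seen, had log2 fold changes of 0.28 (adjusted p = 0.594) and -0.32 (adjusted p = 0.512), with overlapping libraries. With single libraries left out, that of Fabp4 went from 0.054 (without VC.2) to 0.60 (without VC.1) and that of Lpl from -0.58 (without AP.2) to -0.052 (without AP.4); with total counts they were 1.15 and 0.55.

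Lipid droplet and triglyceride genes gave 1 higher and 0 lower of 17, with a median log2 fold change of 0.14. The called gene, Gpam, the acyltransferase that starts triglyceride synthesis, had 111, 409, 84.7 and 60.0 normalized counts in VC and 394, 474, 356 and 345 in AP. VC.2 alone reached the AP range, and the log2 fold change was 1.65 (adjusted p = 0.0455), 2.22 without VC.2 (adjusted p = 0.0038), and not called with any other library left out (highest 0.109). Neither edgeR (1.22, adjusted p = 0.116) nor DESeq2 (1.24, adjusted p = 0.0643) called Gpam, and 11 of the 24 alternatives did. Of the fat cell genes that PPARγ is known to drive, also named after their values could be seen, Plin1 had a log2 fold change of 1.03 (adjusted p = 0.144), Cidec of -0.36 (adjusted p = 0.649) and Adipoq of -0.33 (adjusted p = 0.664). The signs of Cidec and Adipoq turned without VC.1 and with total counts. Plin1 had 233 to 717 normalized counts in VC, 2081 in AP.2 and 441 to 755 in the other AP libraries. Its log2 fold change without AP.2 was 0.57 (adjusted p = 0.319). Plin1, Cidec and Adipoq are themselves among the adipocyte markers. The high adipocyte sum of AP.2 thus includes Plin1 and is no separate measure to set beside it. The part of adipocyte RNA in Plin1 was not tested.

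Fatty acid oxidation genes besides Cpt1a showed no call: 1 of 29 was higher, Cpt1a itself, and 0 were lower. The median log2 fold change was -0.17 (0.70 when scaled by total counts), with 9 genes above 0 and 20 below 0. At an unadjusted p under 0.05, 2 were above 0 and 4 below 0, DESeq2 called 1 higher and 1 lower, and edgeR called 1 higher and 0 lower. Acadm and Hadha, PPARα targets that act on fatty acids inside mitochondria, likewise named after their values could be seen, had log2 fold changes of -0.33 (adjusted p = 0.245) and 0.23 (adjusted p = 0.371). The sign of Acadm turned with total counts and that of Hadha once a length trend was removed. The pyruvate dehydrogenase kinases and phosphatases gave 0 of 6 calls with limma, edgeR and DESeq2, and 1, Pdk2, had an unadjusted p under 0.05 (log2 fold change -0.84, adjusted p = 0.110, 0.030 with total counts). Without AP.1 Pdk2 was lower (-1.17, adjusted p = 0.0165), as it was without VC.2 and AP.1 (-1.19, adjusted p = 0.0291). AP.1 had the most Pdk2 of the AP group (424 normalized counts against 134 to 222) and the highest muscle sum, and without it the muscle marker Acta1 was called lower too (-2.62, adjusted p = 0.0024). In VC, Pdk2 was highest in VC.1 (549) and the muscle sum in VC.2 (86522). The part of muscle RNA in Pdk2 was not tested.

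**Figure D3:**
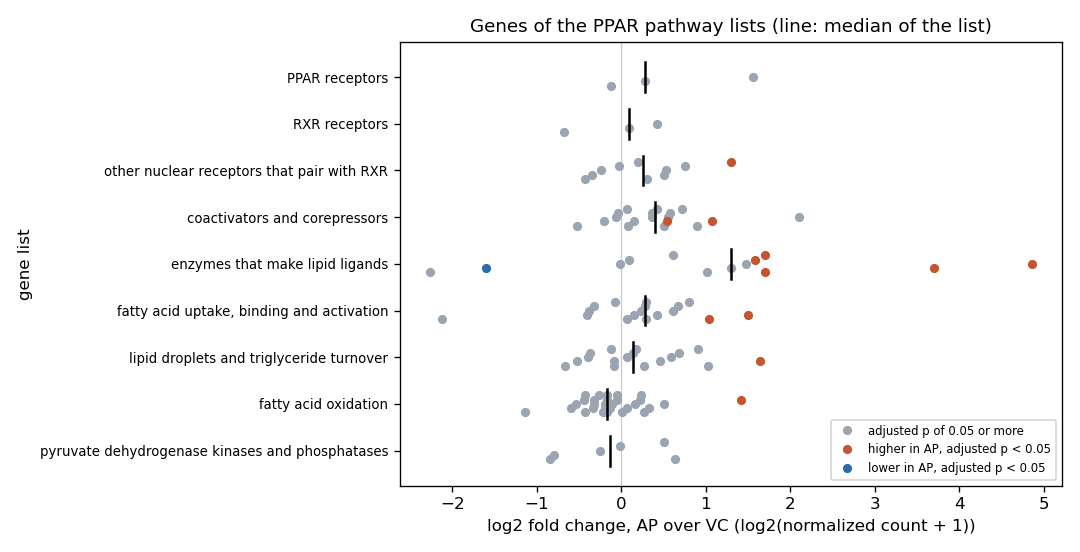
Log2 fold change (AP over VC) of each gene tested in the 9 pathway lists, with 1 row per list; colour marks genes higher or lower at an adjusted p under 0.05, and the upright line marks the median of the list. The fatty acid oxidation genes gather around -0.17 with Cpt1a apart at 1.42, and the enzymes that make lipid ligands reach furthest to both sides; scaling by total counts turns the median of the oxidation list to 0.70.

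Of the receptors that share RXR with PPARs, 1 of 10 was higher and 0 lower, with a median log2 fold change of 0.26. It was Nr4a1, an immediate early gene for an orphan nuclear receptor, at 122, 94.6, 228 and 105.0 normalized counts in VC and 433, 329, 418 and 175 in AP (log2 fold change 1.30, adjusted p = 0.0344). Among the libraries left out in turn its call held only without VC.3 or AP.4 (highest 0.108), and it was lost without VC.2 and AP.1 (0.108). Nr4a1 was not called by voom (0.0529), voom with sample weights (0.0697) or the fit with no intensity trend (0.0835). Coactivators and corepressors gave 2 of 18 higher and 0 lower, with a median of 0.39. Ep300, an acetyltransferase that coactivates many receptors, had 163 to 300.1 in VC and 357 to 632 in AP (log2 fold change 1.07, adjusted p = 0.0198; lost without AP.2, AP.3 or AP.4, highest 0.0688, and with no intensity trend, 0.0563). With the length trend removed Ep300 was at 0.67 (adjusted p = 0.0687). Ncor1, a corepressor that silences PPAR targets in the absence of ligand, had 602 to 689 in VC and 775 to 1095 in AP (log2 fold change 0.54, adjusted p = 0.0419), and its call was kept without AP.1 and lost with each other library left out (highest 0.118). With the length trend removed it was 0.17 (adjusted p = 0.438). Upper-quartile factors (0.0541), edgeR (0.0506), voom (0.0509) and the fit with no intensity trend (0.0948) did not call it either.

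The stretch before the gene start was read for 8 of the 10 genes (11 starts, RefSeq, GRCm38.p6). Angptl4 and Fabp5 were not matched. A PPAR and RXR pair binds a direct repeat of AGGTCA with a spacer of 1 base, so the 250 bases before each start were searched on both strands. The repeat AGGTCANAGGTCA was in 0 of the 11 stretches and in 0.0335% of 32851 stretches of all genes, and the looser AGGNCANAGGNCA, which contains it, was in 0 and in 0.338%. The core AGGTCA alone was in 6 of the 11, from 5 genes (Pparg, Rxra, Cd36, Plin2 and Cpt1a), and in 14.0% of all. A match is a description and shows no binding, and regulatory elements farther away were not read. The stretches of Cpt1a, the gene that changed, and of Plin2, the gene with the lowest unadjusted p in the opposite direction, are printed 5′ to 3′, with capitals at the core or its reverse complement TGACCT. That of Cpt1a is chr19:3323051-3323300 on the plus strand, with the core on the opposite strand from position -94, and that of Plin2 is chr4:86670060-86670309 on the minus strand, with the core on the opposite strand from position -218.
Cpt1a: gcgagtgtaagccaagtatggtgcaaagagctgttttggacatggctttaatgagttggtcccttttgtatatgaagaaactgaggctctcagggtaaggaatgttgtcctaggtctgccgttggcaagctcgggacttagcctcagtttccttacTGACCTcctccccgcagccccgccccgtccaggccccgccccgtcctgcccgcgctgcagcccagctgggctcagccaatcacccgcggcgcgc
Plin2: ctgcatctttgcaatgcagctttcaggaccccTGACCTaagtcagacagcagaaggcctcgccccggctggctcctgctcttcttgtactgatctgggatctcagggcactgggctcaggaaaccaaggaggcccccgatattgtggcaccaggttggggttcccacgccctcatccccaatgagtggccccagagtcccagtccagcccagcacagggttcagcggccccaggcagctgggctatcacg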

How the data were processed

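Messenger RNA of dermis and hair follicles was measured in 4 VC and 4 AP libraries at D4. The submitters' notes name mm10, STAR, HTSeq and DESeq2, whereas the study's methods name featureCounts for counting. The 8 deposited signal columns hold counts that the authors divided by a size factor for each library: 100% of 150160 values were whole multiples of a step per library (tolerance 0.1 read), which gave back the reads. A further 6 columns hold the authors' own comparison (mean, log2 fold change, its error, statistic, p and adjusted p) and were not used.

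limma 3.58.1 in R 4.3.3 (empirical Bayes, intensity trend, 2-sided) was run on log2(normalized count + 1) for the 15964 of 18770 genes that reached 3 normalized counts in 4 or more libraries, with Benjamini-Hochberg adjustment over all of them and a threshold of 0.05. It called 1011 genes higher and 639 lower. On the recovered reads, edgeR 4.0.16 called 1003 higher and 712 lower, and DESeq2 1.42.0 called 1677 and 1362. The steps were tested on simulated data. The chi-square per degree of freedom between replicates was 14.7 to 74.2; it was not computed separately for genes with few reads, such as Ptgs2 (1 to 4 reads in VC) and Ppara (3 reads in VC.1 and VC.3). The floor was set at 3 reads.

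Levels per kilobase used the union of exons in GENCODE M21, and promoter sequences are from RefSeq (GRCm38.p6). The alternatives were TMM, upper-quartile and total-count scaling, median-of-ratios without mitochondrial genes, edgeR, DESeq2, voom with and without sample weights, no intensity trend, pseudocounts of 0.5 and 5, no filter, a minimum of 10, removal of a length trend, reads drawn down to 3080758 per library, the criteria of the study's methods, and each library left out. The setting without VC.2 and AP.1 was chosen after the data were seen. For single genes, the 24 alternatives include that setting and leave out the criteria of the study's methods, which were applied to counts of called genes only.

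Members and lists were chosen with earlier results of these data known. Genes named were the 10 members, Rxrb and Rxrg, up to 4 called genes of each list by size of change (where none was called, the 2 most abundant per kilobase), and the most abundant gene of each marker list. Ptgds, Alox12, Acadm, Hadha, Fabp4, Lpl, Plin1, Cidec and Adipoq, and the called markers Adrb3, Tnnc2, Pecam1, Cdh5, Flt1, Krt72 and Tchh, were named outside this rule, after their values were seen. No marker was at 0 in all libraries of a group. Cpt1b was listed but not analysed here. The marker lists also covered hair matrix and inner root sheath, fibroblasts, macrophages and mitochondrially encoded genes.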

Additional observations from a re-analysis of the deposited data

Results flagged for a closer look

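In 10 of 106 groups of 4 libraries, a library stood apart by more than Dixon's 95% limit, where chance gives about 1 in 20 groups. Among the PPAR genes these were Pparg in VC.2, at 355 normalized counts against 163 to 180.1 in the other VC libraries, Pdk4 in AP.1, at 912 against 104 to 236, and Cpt1a in AP.3, at 680 against 404 to 418. Cpt1a was also called without AP.3. Gpam in VC.2 was at 409 against 60.0 to 111, Acsl1 in VC.1 at 719 against 506 to 514, Acsl1 in AP.2 at 1920.0 against 908 to 1047, and Rxrb in AP.4 at 508 against 406 to 419. Of the markers, Acta1 in AP.1 was at 20882 against 1683 to 4337, the summed skeletal muscle markers in AP.1 at 85898 against 6578 to 13844, and the summed endothelial markers in AP.2 at 8264 against 2827 to 3586. Pdk4 and the muscle markers stood apart in the same library, AP.1; the part of muscle RNA in Pdk4 was not tested. Acsl1 stood apart in the libraries with the highest adipocyte marker sums of their groups, VC.1 (26364) and AP.2 (27144). However, VC.4 had the next highest adipocyte sum of the VC group (16463) and the lowest Acsl1 (506). The part of adipocyte RNA in Acsl1 was not tested.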

How the results depend on the processing

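Cpt1a kept its direction and its call under all 24 alternatives. Depth without mitochondrial reads was lower in every VC library than in any AP library, which limits genes with few reads there, such as Ppara, Ptgs2, Alox12 and Alox12b. With 4 libraries a group, the intervals of Angptl4, Pdk4, Cd36 and Fabp5 leave room for changes of over 0.80 on the log2 scale. No cause of the shifts below was tested.

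Total counts gave 8670 genes higher and 65 lower, 6 members higher, and 68 pathway genes higher and 0 lower; it turned the log2 fold changes of Pparg (0.74), Plin2 (0.20), Pdk4 (0.069), Rxrg (0.15), Pdk2 (0.030), Elovl3 (0.14), Acadm (0.54), Lpl (0.55), Cidec (0.51) and Adipoq (0.54). DESeq2 gave 1677 higher and 1362 lower, 1 member lower and 4 pathway genes lower, and turned Angptl4 (-0.028), as did edgeR (-0.024). Without the intensity trend, 376 genes were higher and 216 lower, with 3 pathway genes higher. With the length trend removed, 6 pathway genes were higher and 2 lower, and Hadha turned (-0.051). Pathway genes lower numbered 2 with upper-quartile factors and 4 with voom and sample weights. Without VC.2 and AP.1, chosen after seeing the data, 2 members were higher and 3 pathway genes lower. Over all genes, slightly more were called in each direction than in the main fit. The added member, Fabp5, had its highest VC value in VC.2 and its lowest AP value in AP.1, so its call carries no information. Pparg (0.088) and Fabp4 (-0.015) turned under this setting.

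With each library left out in turn, genes higher ranged from 211 to 1061 and genes lower from 96 to 812, members higher from 1 to 2, and pathway genes higher from 1 to 12 and lower from 1 to 3. Over the same fits the log2 fold change ranged from -0.33 to 0.14 for Pparg, -0.36 to 0.70 for Angptl4, -0.20 to 0.37 for Cd36, -0.042 to 0.21 for Rxrb, -0.72 to 0.094 for Cidec and -0.73 to 0.000374 for Adipoq. The difference in mitochondrial share (AP minus VC) ranged from -41.9 to -37.8 percentage points.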

Other observations

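Marker lists of the remaining cell types gave these values. Hair matrix and inner root sheath markers gave 2 of 11 higher (Krt72 and Tchh) and 0 lower by limma (edgeR called 3 higher and DESeq2 4, and 5 had an unadjusted p under 0.05), with a median log2 fold change of 0.99. Krt71, the most abundant, had 219 to 1204 normalized counts in VC and 989 to 5743 in AP, and was called by edgeR (adjusted p = 0.0406) and DESeq2 (0.0231) but not by limma (0.0575). Fibroblast markers gave 0 of 8 called by limma (DESeq2 called 1 lower and edgeR 0, and 3 had an unadjusted p under 0.05), with a median of 0.49, and Col1a1 had 21330 to 67062 in VC and 27508 to 84986 in AP. Macrophage markers gave 0 of 9 called by limma (DESeq2 called 3 lower and edgeR 0, and 6 had an unadjusted p under 0.05), with a median of -0.86 that total-count scaling moved to 0.00426, and Lyz2 had 3549 to 11655 in VC and 2427 to 4508 in AP. Of the 12 mitochondrially encoded genes tested, 10 were lower by limma and 12 by edgeR and DESeq2, with a median of -3.38. The most abundant, mt-Co1, had 1564030 to 2888100 in VC and 123193 to 284397 in AP and was not called by limma (adjusted p = 0.180).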
